A study of Mus musculus with 10 samples.

Results

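The 10 genes described here are 7 ligands of the epidermal growth factor (EGF) family (Egf, Areg, Ereg, Hbegf, Tgfa, Btc and Epgn) and 3 receptors of the ERBB family (Egfr, Erbb2 and Erbb3). They were picked by name, as family members, out of 48897 rows of gene values, and all 10 had a row in both tables of the series. The series holds RNA-seq of 10 samples, which fall into 4 groups. In the first system, prostate cells that stained for EpCAM but lacked CD45 were sorted from male C57BL/6 mice aged 3 months, with 3 control libraries (A, B and C) and 3 libraries whose genotype adds Arid1aPC-/-, here called labelled Arid1a KO (A, B and C). Floxed alleles were deleted by a Cre recombinase under the probasin promoter, which is active in prostate epithelium. The controls carry a deletion of this kind that both groups share, so they are not wild type. In the second system, Myc-CaP, a prostate cancer line from FVB mice that carry a Myc transgene, gave 2 empty vector (EV) libraries and 2 Arid1a KO libraries. The source is given as the cell line, and since the study also sequenced tumours grown from Myc-CaP cells, growth in culture is read from the labels only. Nothing says that libraries of a group came from separate cultures, so p-values for Myc-CaP measure the spread between these samples, which may be technical.

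EGF family ligands are made as membrane-anchored precursors. Metalloproteases of the ADAM family cut them loose, and the freed ligand binds a receptor on the same or a neighbouring cell. Egf, Areg, Tgfa and Epgn bind EGFR, while Hbegf, Ereg and Btc also bind ERBB4. ERBB2 has no known ligand and acts as the partner of the other receptors, and ERBB3, whose ligands are the neuregulins, has little kinase activity of its own and signals through PI3K when paired with ERBB2. Receptor activation feeds the RAS-MAPK and PI3K pathways. In prostate these receptors are studied for growth that depends less on androgen.

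The epithelium was deposited in RPKM (reads scaled to gene length and to the mapped reads of the library) and Myc-CaP in TPM (scaled to length and then to the same total in every library), so levels can be compared between genes of a sample but not between the systems. Differences are limma estimates on the log2(value + 1) scale, labelled Arid1a KO minus control, and a gene was called at a Benjamini-Hochberg adjusted p under 0.05 over all genes tested (mean value of at least 0.5). Depth, estimated from the steps between low values, was between 28.8 and 36.3, in units of 1e+06 reads, in the epithelium. Arid1a itself was not lower in the epithelium libraries labelled Arid1a KO. It measured 27.8, 21.9 and 26.5 RPKM in controls A, B and C, then 31.1, 28.8 and 30.8 RPKM in those labelled Arid1a KO, a difference of 0.25 (adjusted p = 0.054, limma). A value over the whole gene does not single out floxed exons, and which exons were removed is not given in the sources used here. In Myc-CaP, Arid1a was 60.5 and 61.0 TPM with the empty vector and 39.5 and 40.3 TPM in Arid1a KO (adjusted p = 0.010, limma).

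The sorted libraries differed between groups in their cell type markers, and the part of these differences in the results that follow was not tested. Under the Arid1a KO label, all 7 of 7 macrophage markers were higher, with a summed level of 1964 to 2294 RPKM in controls and 3674 to 4224 RPKM in the others. Ptprc, which encodes CD45, was 28.6 ± 2.3 RPKM (SD, n = 3) in controls and 57.3 ± 1.0 RPKM (SD, n = 3) in the libraries labelled Arid1a KO, although the sort was for cells without CD45. Over all genes tested in the epithelium, 27.5% were called higher and 29.6% lower, and several of the counts that follow are near those shares. Of the other lists, 4 of 5 leukocyte, 3 of 6 neutrophil, 3 of 7 T cell and ILC, 4 of 5 B cell, 3 of 7 basal, 1 of 4 endothelial and 1 of 4 smooth muscle markers were higher. Lower were 2 of 6 epithelial, 5 of 7 luminal, 1 of 5 leukocyte, 1 of 7 T cell and ILC, 3 of 6 fibroblast, 3 of 4 smooth muscle and 6 of 6 seminal vesicle markers, the last from a summed 18306 to 20707 RPKM down to 623 to 1573 RPKM. None of these markers was at 0 in every epithelium library. In Myc-CaP the markers of macrophages summed to at most 2.9 TPM and those of neutrophils to at most 0.44 TPM in any library. The T cell and ILC marker that was lower in the epithelium was at 104 TPM or more in every Myc-CaP library, so it does not read lymphocytes alone. The epithelial markers Epcam and Cdh1 were at or near 0 there, and Krt8 was 1.07 and 0.790 TPM with the empty vector and 40.3 and 38.8 TPM in Arid1a KO.

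Of the 9 members tested in the epithelium, 4 rose in the libraries labelled Arid1a KO (Areg, Ereg, Hbegf and Erbb3), 1 fell (Egf) and 4 were not called (Tgfa, Btc, Egfr and Erbb2). Epgn did not reach the minimum mean of 0.5 RPKM. The background was wide, since 57.1% of all 16275 genes tested were called, 27.5% higher and 29.6% lower, and 5 of 9 members is close to that share. The median difference of the members tested was 0.23 against -0.03 over all genes. In Myc-CaP 7 members were tested, of which Btc rose, Erbb3 fell and 5 were not called, against a background of 6.43% of 13974 genes called, 4.54% higher and 1.89% lower. Areg, Ereg and Epgn did not reach the minimum mean there.

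**Figure D1:**
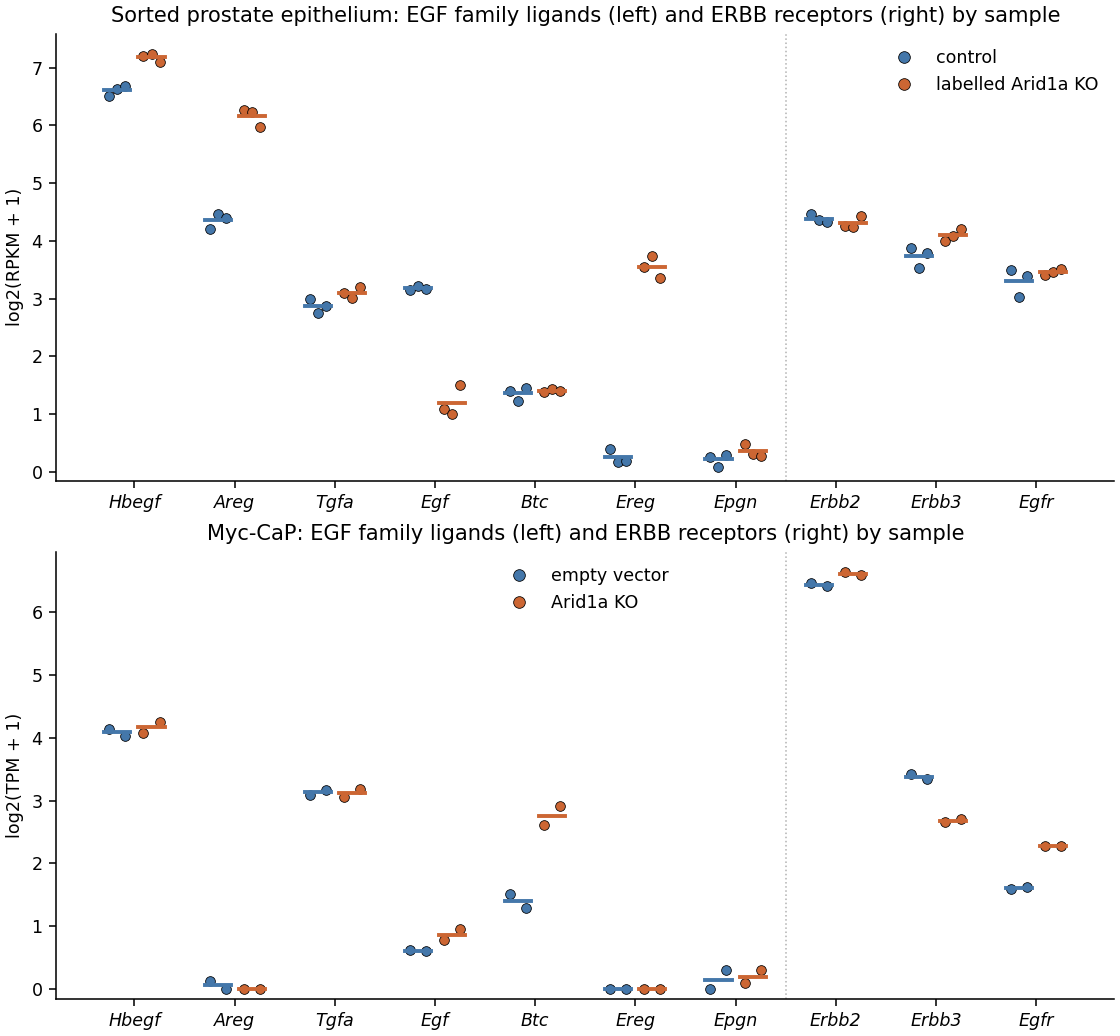
Level of each of the 10 members in every library, as log2(RPKM + 1) in the sorted epithelium (top) and log2(TPM + 1) in Myc-CaP (bottom), with controls in blue, Arid1a KO in orange and a line at each group's mean on that scale. In the epithelium Areg, Ereg, Hbegf, Egf, Tgfa and Erbb3 separate the groups with no overlap. In Myc-CaP Areg and Ereg lie at or near 0 in all 4 libraries, and Btc, Egf, Egfr, Erbb2 and Erbb3 separate the groups. Of these, Tgfa in the epithelium and Egf, Egfr and Erbb2 in Myc-CaP were not called. The share of all genes that separate the groups within 1 system was not counted, so the separation is not shown to be particular to these members. A separation has a two-sided exact permutation p of 0.1 with 3 libraries against 3 and of 0.333 with 2 against 2.

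Areg and Ereg were the ligands that rose most in the epithelium, and both lie in 1 cluster on chromosome 5. Areg (chromosome 5, 91139599 to 91148432, RefSeq GRCm38.p6) encodes amphiregulin, a low-affinity EGFR ligand known in tissue repair and also made by some immune cells. It measured 17.5, 21.2 and 19.9 RPKM in controls A, B and C, then 76.0, 74.1 and 61.9 RPKM in those labelled Arid1a KO. The lowest library labelled Arid1a KO lay above the highest control by far more than either group's spread. The ratio of the group means was 3.62, and the difference was 1.80 ± 0.10 (SE, n = 3 and 3, adjusted p = 1.9e-05, limma).

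Ereg (chromosome 5, 91074617 to 91093649) encodes epiregulin, known for EGFR signals that last longer than those of EGF. It was 0.318, 0.126 and 0.140 RPKM in the controls and 10.8, 12.3 and 9.23 RPKM in the libraries labelled Arid1a KO. At these depths the control values stand for about 18 to 39 reads and the others for about 1098 to 1513, so counting error weighs far more on the control level than on the level after. The difference was 3.30 ± 0.12 (SE, adjusted p = 3.7e-06, limma) with a pseudocount of 1 and 5.25 with a pseudocount of 0.1. It was the largest difference among the members tested in either system. Ereg passed the minimum mean of 0.5 only through the libraries labelled Arid1a KO (control mean 0.195 RPKM).

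Of the other ligands of this cluster, Btc was not called and Epgn was too low to be tested. Epgn (chromosome 5, 91027517 to 91035212), which encodes epigen, was 0.198, 0.065 and 0.226 RPKM in the controls and 0.405, 0.236 and 0.204 RPKM in the libraries labelled Arid1a KO, and the groups overlapped. These are about 4 to 22 reads, and no change was detectable at that depth. Btc (chromosome 5, 91357261 to 91402994), which encodes betacellulin, was 1.64, 1.35 and 1.74 RPKM in the controls and 1.60, 1.70 and 1.65 RPKM in the others, with a difference of 0.04 ± 0.09 (SE, adjusted p = 0.70, limma). The direction for Btc was not stable, since it was -0.02 without control B.

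The promoters of the cluster's ligands are shown for Areg, which rose, and for its neighbours Btc, which was not called, and Epgn, which was not tested. These are the 250 bases before each gene's start in RefSeq GRCm38.p6, and capitals mark matches of TGANTCA or TGACGTCA on either strand. TGACGTCA is the element bound by CREB family factors and TGANTCA that of AP-1, and neither motif contains the other.
Areg, chr5:91139349-91139598, plus strand: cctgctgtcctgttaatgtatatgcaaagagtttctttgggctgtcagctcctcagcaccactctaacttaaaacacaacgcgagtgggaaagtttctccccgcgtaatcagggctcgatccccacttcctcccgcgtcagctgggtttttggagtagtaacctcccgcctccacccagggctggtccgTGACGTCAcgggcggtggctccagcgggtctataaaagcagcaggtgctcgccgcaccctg
Epgn, chr5:91027267-91027516, plus strand: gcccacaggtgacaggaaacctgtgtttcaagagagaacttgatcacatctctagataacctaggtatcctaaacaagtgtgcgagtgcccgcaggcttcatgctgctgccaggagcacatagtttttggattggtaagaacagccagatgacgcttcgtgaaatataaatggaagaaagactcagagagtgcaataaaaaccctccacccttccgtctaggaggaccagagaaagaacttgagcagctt
Btc, chr5:91402995-91403244, minus strand: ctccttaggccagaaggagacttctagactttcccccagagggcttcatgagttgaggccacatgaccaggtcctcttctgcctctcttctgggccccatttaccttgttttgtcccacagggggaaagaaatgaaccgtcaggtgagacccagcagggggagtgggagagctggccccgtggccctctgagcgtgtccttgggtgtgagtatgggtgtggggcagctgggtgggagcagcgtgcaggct
The Areg promoter held TGACGTCA, with its first base 61 bases before the start. Windows of 300 bases, which add 50 bases after the start, were searched for 7 members with an entry (Egf had 2 windows), and the Areg match was the only one among 8. Of all 32851 windows of that length, 1.79% held TGACGTCA and 7.81% held TGANTCA. A match describes the letters and no binding was measured here. The promoter of Ereg, which also rose, was not searched, and whether a match goes with a rise was not tested.

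Around the cluster, 34 annotated genes lie within 500 kb of the span from Epgn to Btc, of which 13 reached the minimum mean in the epithelium. Of the 10 that are no EGF family members, 5 were higher, 3 were lower and 2 were not called, against the 57.1% of all genes. Ppbp, a CXC chemokine of platelets and myeloid cells, was 0.343, 0.254 and 0.444 RPKM in the controls and 78.2, 79.7 and 67.2 RPKM in the libraries labelled Arid1a KO (difference 5.82, up to 7.41 under the alternatives). Ppbp, too, passed the minimum mean only through the libraries labelled Arid1a KO (control mean 0.347 RPKM). The neutrophil-attracting chemokines Cxcl3 (2.65) and Cxcl2 (1.11), the CXC chemokine Cxcl15 (1.0) and platelet factor Pf4 (0.38) were higher too. Cxcl5 (-0.57), the mitochondrial folate enzyme gene Mthfd2l (-0.33) and Parm1 (-0.54) were lower, while Cxcl1 (0.02) and Rassf6 (-0.15) were not called. The difference of Cxcl1 turned to -0.16 without control B, and the call of Mthfd2l was lost under some alternatives (largest adjusted p = 0.15). Genes that rose therefore stood on either side of genes that fell or were not called, and Areg and Ereg were the only genes to rise in the stretch from Mthfd2l to Parm1 among the 5 tested there.

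**Figure D2:**
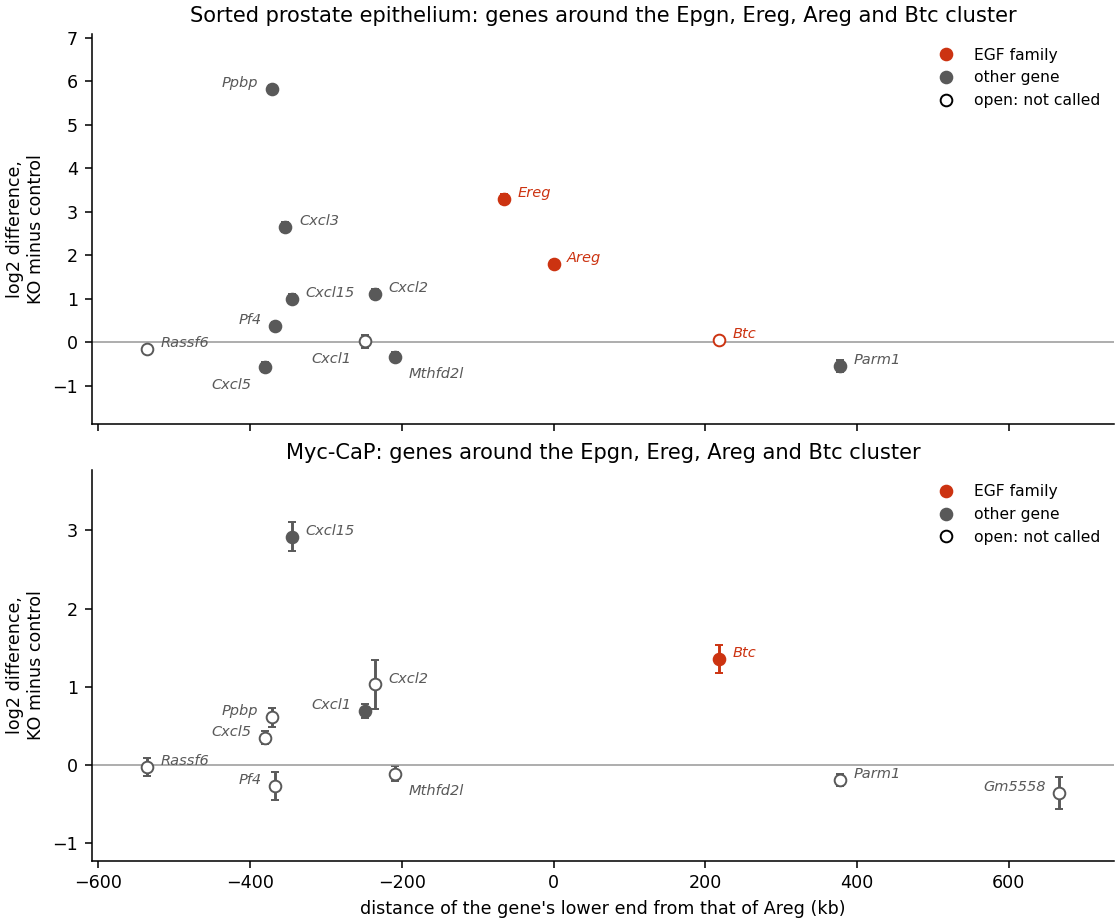
Difference (log2 scale, KO minus control, bars for SE) against distance in kb from Areg for genes around the Epgn to Btc cluster, EGF family members in red and open points not called. In the epithelium Ppbp (5.82), Ereg (3.30), Cxcl3 (2.65) and Areg (1.80) lie highest and Btc is at 0.04, while in Myc-CaP Cxcl15 (2.92) and Btc (1.36) lie highest.

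Hbegf, the gene of heparin-binding EGF-like growth factor, was the most abundant ligand in both systems. In the epithelium it was 90.5, 97.7 and 101 RPKM in the controls and 146, 149 and 136 RPKM in the libraries labelled Arid1a KO. The groups did not overlap, and the 1.49-fold ratio of means was small beside that of Areg. The difference was 0.57 ± 0.07 (SE, adjusted p = 4.8e-04, limma).

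Egf went the other way. Egf (chromosome 3, 129677574 to 129755322) encodes the founding ligand of the family, a large precursor that secretory epithelia make. It was 7.87, 8.34 and 8.03 RPKM in the controls and 1.14, 0.996 and 1.83 RPKM in the libraries labelled Arid1a KO, which left 0.164 of the control mean. All 3 libraries labelled Arid1a KO lay far below the 3 controls, which differed little among themselves. The difference was -1.98 ± 0.13 (SE, adjusted p = 3.8e-05, limma). Of the 7 luminal markers, 5 fell in the same libraries, among them Hoxb13 (a difference of -1.83). The other 2, among them Krt8 (0.03), were not called. The seminal vesicle markers above fell as well. What part the luminal and seminal vesicle markers have in the fall of Egf was not tested. In such bulk libraries fewer cells of a type and less RNA per cell cannot be told apart.

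Tgfa (chromosome 6, 86195038 to 86275744), which encodes transforming growth factor alpha, was 6.95, 5.70 and 6.35 RPKM in the controls and 7.56, 7.06 and 8.19 RPKM in the libraries labelled Arid1a KO. The groups did not overlap, but the gap between them was small beside their spread. The difference of 0.23 ± 0.09 (SE) was not called (adjusted p = 0.057, limma). It was called with every library rescaled to the same sum of RPKM (adjusted p = 0.013), after quantile normalization (0.046) and without control A (0.040).

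Of the receptors, Erbb3 alone was called in the epithelium. Erbb3 (chromosome 10, 128567523 to 128589635) was 13.7, 10.6 and 12.8 RPKM in the controls and 15.0, 15.9 and 17.5 RPKM in the libraries labelled Arid1a KO, a difference of 0.36 ± 0.10 (SE, adjusted p = 0.018, limma). Without library C labelled Arid1a KO the call was lost (adjusted p = 0.056). Erbb2 (chromosome 11, 98412484 to 98437716) was 21.0, 19.5 and 19.2 RPKM in the controls and 18.0, 17.8 and 20.5 RPKM in the others. Its difference of -0.08 ± 0.08 (SE, adjusted p = 0.39, limma) turned to 0.09 after rescaling to the same sum. Egfr (chromosome 11, 16752203 to 16913907), the receptor that all these ligands bind, was 10.3, 7.16 and 9.48 RPKM in the controls and 9.64, 10.0 and 10.4 RPKM in the others, and the groups overlapped. Its difference of 0.16 ± 0.12 (SE, adjusted p = 0.30, limma) turned to -0.04 after removal of a trend on gene length.

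Scaling matters for these small differences, because RPKM summed to between 397999 and 473331 per library and the sums were lower in all 3 libraries labelled Arid1a KO. Rescaling every library to the same sum moved the median difference of all genes by 0.14, from -0.03 to 0.11, and the share of calls that were higher from 48.1% to 64.6%. Areg (1.97), Ereg (3.39), Hbegf (0.75), Erbb3 (0.53) and Egf (-1.86) each kept their direction and their call.

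**Figure D3:**
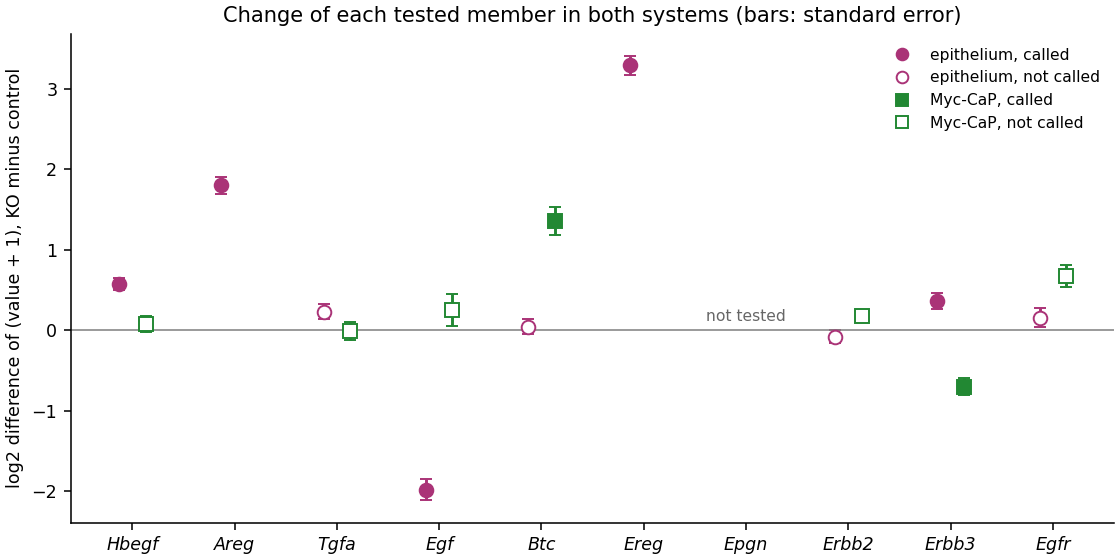
Difference of each tested member (log2 scale, KO minus control, bars for SE) in the epithelium (circles) and Myc-CaP (squares), filled where called. Ereg at 3.30 and Egf at -1.98 are the extremes in the epithelium, and Btc at 1.36 and Erbb3 at -0.70 those in Myc-CaP.

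In the epithelium the summed ligand level was 132 ± 6.6 RPKM (SD, n = 3) in the controls and 236 ± 14.9 RPKM (SD, n = 3) in the libraries labelled Arid1a KO, while the 3 receptors summed to 41.2 ± 3.9 and 45.0 ± 3.1 RPKM. Hbegf held 72.9% ± 0.6 (SD, n = 3) of the summed ligand level in the controls and 61.0% ± 1.1 (SD, n = 3) in the others. Areg went from 14.7% ± 0.9 to 29.9% ± 1.5, Ereg from 0.15% ± 0.09 to 4.54% ± 0.41 and Egf from 6.11% ± 0.25 to 0.57% ± 0.23. In these shares Areg and Ereg took up more of the ligand level and Hbegf and Egf less, with Hbegf first in every library. Among the receptors, Erbb2 held 48.4% ± 3.4 and then 41.8% ± 0.9, Erbb3 29.9% ± 1.3 and then 35.9% ± 0.6, and Egfr 21.7% ± 2.1 and then 22.3% ± 0.8. The Erbb2 to Erbb3 ratio was 1.62 ± 0.19 in the controls and 1.16 ± 0.04 in the libraries labelled Arid1a KO.

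With 3 libraries against 3, a two-sided exact permutation test gives at best a p of 0.1. Of 15 shares, sums and ratios tested in the epithelium, 12 reached that smallest value (adjusted over the 15, 0.13), and the receptor sum (exact p = 0.3) and the shares of Egfr (exact p = 0.9) and Epgn (exact p = 1) did not. The 15 measures are not separate results, since the shares of a group add up to the whole and the sums and ratios reuse the same genes. The Btc share went from 1.19% to 0.70%, for example, although Btc itself was not called (means of 1.58 and 1.65 RPKM). The shares also rest on the length scaling. When each value was multiplied by gene length, which approximates reads, the difference in the Hbegf share was 3.51 percentage points instead of -11.9, and that of the Areg share was 5.78 instead of 15.1 percentage points. The exons of Areg span 1215 bases and those of Hbegf 4834 bases in GENCODE M21.

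**Figure D4:**
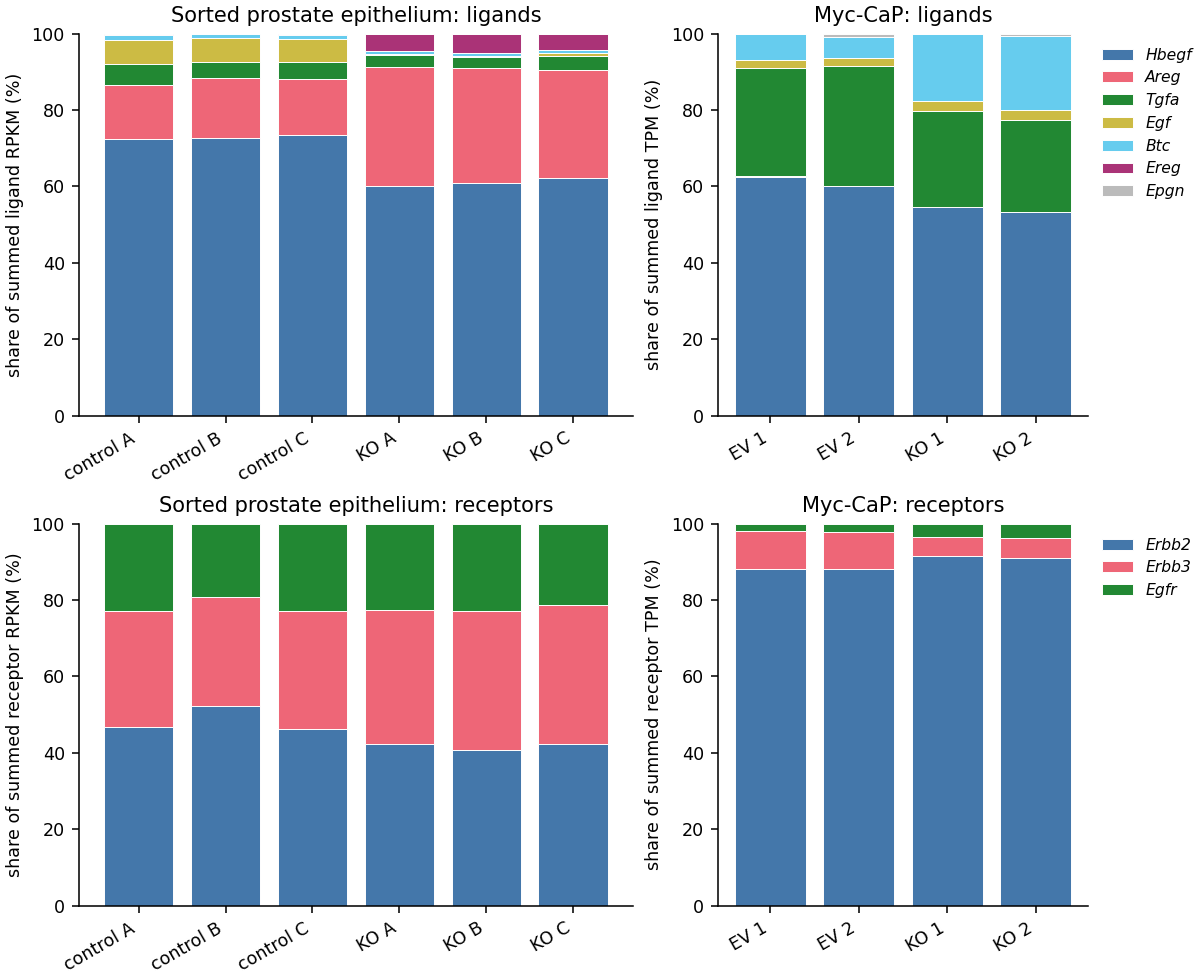
Share of the summed ligand level (top) and summed receptor level (bottom) held by each member in each library, in % of RPKM for the epithelium (left) and of TPM for Myc-CaP (right). Areg takes 28.3% to 31.2% of ligand RPKM in the libraries labelled Arid1a KO against 14.0% to 15.7% in controls, and Erbb2 takes a mean of 88.2% and then 91.2% of receptor TPM in Myc-CaP.

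Myc-CaP shared its most abundant ligand with the epithelium, but Areg and Ereg were at or near 0. Hbegf was highest at 16.7 and 15.3 TPM with the empty vector and 15.8 and 18.1 TPM in Arid1a KO, followed by Tgfa at 7.55 and 8.01 TPM and at 7.32 and 8.13 TPM. Both ligands overlapped between the groups (differences of 0.07 ± 0.10 and -0.01 ± 0.11, SE, n = 2 and 2). Areg was 0.094 TPM in 1 empty vector library, close to the value of 1 read, and listed at 0 in the other 3 libraries. Ereg was listed at 0 in all 4 libraries. Epgn was at most 0.232 TPM, or about 3 reads. No rise of Areg or Ereg was therefore seen in the Arid1a KO libraries of these cells, and a fall could not have been detected.

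Btc was the ligand that moved in Myc-CaP. It was 1.86 and 1.44 TPM with the empty vector and 5.09 and 6.54 TPM in Arid1a KO, a ratio of means of 3.52. The difference was 1.36 ± 0.18 (SE, adjusted p = 0.021, limma). Both KO libraries lay above both controls by more than the spread of either pair. Egf was 0.533 and 0.527 TPM and then 0.713 and 0.936 TPM, higher in both KO libraries but with a difference of 0.25 ± 0.20 (SE, adjusted p = 0.55, limma). Near the cluster that holds Btc, 2 of 10 tested genes that are no members were higher and none was lower, namely Cxcl15 (2.92) and Cxcl1 (0.69). Of all genes tested in Myc-CaP, 4.54% were higher and 1.89% lower. The calls of Cxcl15 and Cxcl1 were both lost under some alternatives, and a shared cause with Btc was not tested. Not called there were Cxcl2 (1.03), Ppbp (0.61), Cxcl5 (0.35), Rassf6 (-0.02), Mthfd2l (-0.11), Parm1 (-0.19), Pf4 (-0.26) and Gm5558 (-0.35).

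Erbb2 was by far the most abundant receptor in Myc-CaP, at 87.0 and 83.9 TPM with the empty vector and 98.1 and 95.1 TPM in Arid1a KO. Both KO libraries were higher, but the difference of 0.18 ± 0.06 (SE) was not called (adjusted p = 0.16, limma). Erbb3 was 9.70 and 9.16 TPM and then 5.30 and 5.53 TPM, a difference of -0.70 ± 0.10 (SE, adjusted p = 0.027, limma). Egfr was 2.02 and 2.09 TPM and then 3.87 and 3.86 TPM, a ratio of means of 1.88, with a difference of 0.67 ± 0.13 (SE) that was not called (adjusted p = 0.059, limma). The Erbb2 to Erbb3 ratio was 9.07 ± 0.14 (SD, n = 2) with the empty vector and 17.9 ± 0.9 (SD, n = 2) in Arid1a KO. In shares of the receptor sum, Erbb2 held 88.2% and then 91.2%, Erbb3 9.72% and then 5.11%, and Egfr 2.12% and then 3.65%.

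The Myc-CaP calls rest on few samples. With 2 libraries against 2 the smallest exact permutation p is 0.333, and limma leans on the spread shared across genes. Without any 1 of the 4 libraries, 0 members were called, and for Btc the adjusted p was then between 0.11 and 0.14 and for Erbb3 between 0.15 and 0.19. At an unadjusted p under 0.05 all 3 receptors and Btc passed. The share of all genes that pass there was not counted. It is a loose threshold, since a gene with an unadjusted p of 0.051 (Parm1) had an adjusted p of 0.23 (limma).

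The other genes of the pathway were read from a list of 59, in 5 groups by role. In the epithelium 57 were tested, of which 28 were higher, 11 were lower and 18 were not called, against 27.5% and 29.6% of all genes. The median of the list was 0.21 against -0.03 over all genes. After rescaling to the same sum 35 were higher and 5 were lower, where 6028 of all 16275 genes were higher and 3307 lower. Without library B labelled Arid1a KO 26 were higher and 5 were lower, against 3709 and 4059 of all 16266 genes. With no filter on low values 28 were higher and 7 were lower, against 4554 and 4946 of all 33813 genes. In Myc-CaP 49 were tested, of which 3 were higher, 1 was lower and 45 were not called, against 4.54% and 1.89% of all genes, with a median of -0.08.

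The remaining ligands and the remaining receptor came first. Nrg1, the gene of neuregulin 1 (a ligand of ERBB3 and ERBB4), was 0.236, 0.364 and 0.268 RPKM in the controls and 1.16, 1.18 and 0.944 RPKM in the libraries labelled Arid1a KO, a rise of 0.70 (adjusted p = 7.2e-04, limma). Nrg1 passed the minimum mean of 0.5 only through the libraries labelled Arid1a KO (control mean 0.289 RPKM). Nrg2 was 1.69, 1.96 and 1.52 RPKM and then 0.304, 0.451 and 0.689 RPKM, a difference of -0.88 (adjusted p = 7.5e-04, limma). Nrg2 passed the minimum mean only through the controls (mean of the others 0.482 RPKM). So of the neuregulins 1 rose and 1 fell, both at low levels of at most 1.96 RPKM. At such levels the pseudocount of 1 shrinks a difference, and under the alternatives it reached 1.63 for Nrg1 and -1.70 for Nrg2. Nrg4 was 0.870 ± 0.11 and 0.636 ± 0.038 RPKM (SD, n = 3) and was not called. Erbb4 reached at most 0.058 RPKM and Nrg3 at most 0.026 RPKM in the 6 epithelium libraries, and 0.0071 and 0.017 TPM in Myc-CaP. In Myc-CaP Nrg1 was at most 0.043 TPM and Nrg2 at most 0.014 TPM, and Nrg4 was 0.652 and 0.820 TPM and then 0.364 and 0.475 TPM, which was not called.

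The shedding group, proteases that release the ligands and the proteins that guide them, moved mostly upwards in the epithelium. Of 9 genes, 7 were higher and 2 were lower, against 27.5% and 29.6% of all genes tested. Adam17, the main sheddase of amphiregulin, epiregulin, transforming growth factor alpha and heparin-binding EGF-like growth factor, was 20.5, 19.1 and 20.9 RPKM in the controls and 32.7, 30.9 and 32.3 RPKM in the libraries labelled Arid1a KO. That was a difference of 0.64 (adjusted p = 1.4e-04, limma). Adam12, another metalloprotease, was 0.590, 0.298 and 0.669 RPKM and then 4.86, 4.84 and 4.15 RPKM (1.89, up to 2.98 under the alternatives). Adam10, the main sheddase of EGF and betacellulin, rose by 0.56, and Adam9 and Adam19 rose by 0.51 and 0.96. The iRhom genes, whose products carry ADAM17 to the surface, split, with Rhbdf2 higher by 0.64 and Rhbdf1 lower (-0.63), and their partner Frmd8 was higher by 0.34. Adam15 was lower (-0.24), a call lost with rescaled sums (-0.06) and without library B labelled Arid1a KO (adjusted p = 0.062). In Myc-CaP Adam10 was higher, with 81.3 and 92.8 TPM and then 119 and 128 TPM (0.50, adjusted p = 0.040, limma), and the 6 others tested were not called.

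Of the 14 genes that restrain the receptors or MAPK, 4 were higher and 2 were lower in the epithelium. Of all genes tested there, 27.5% were higher and 29.6% lower. Cbl, a ubiquitin ligase that sends EGFR to degradation, was 5.08, 3.40 and 4.76 RPKM and then 11.7, 11.5 and 10.7 RPKM (1.20), and Socs4, which also targets EGFR, rose by 0.92. The Sprouty genes, feedback inhibitors of RAS-MAPK signalling, went down where called. Spry1 was 19.9, 20.0 and 20.7 RPKM and then 10.4, 10.1 and 10.0 RPKM (-0.92, adjusted p = 2.8e-05, limma), and Spry2 was lower by -0.61 on the log2 scale. In Myc-CaP Errfi1, a feedback inhibitor of EGFR and ERBB2 kinases, was 154 and 165 TPM and then 267 and 282 TPM (0.78, adjusted p = 0.0067, limma). Errfi1 was not called in the epithelium (-0.21, adjusted p = 0.072).

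Among 18 adaptors and kinases, 9 were higher and 3 were lower in the epithelium, against 27.5% and 29.6% of all genes. Examples among those with the lowest adjusted p were Map2k1 (0.41), a MAPK kinase gene, for those higher, and Mapk3 (-0.77) and Hras (-0.37) for those lower. Mapk3, which encodes ERK1, was 126, 142 and 130 RPKM and then 77.5, 68.0 and 86.8 RPKM, so the groups did not overlap. The Hras call was lost after rescaling (adjusted p = 0.11). None of the 18 was called in Myc-CaP by limma, where 3 had an unadjusted p under 0.05. The share of all genes under that unadjusted threshold was not counted.

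Of 13 genes known to respond to MAPK signalling, 7 were higher and 3 were lower in the epithelium. The shares of all genes tested there were 27.5% higher and 29.6% lower. Plaur, the urokinase receptor gene, was 99.7, 96.0 and 97.7 RPKM and then 275, 266 and 217 RPKM (1.35), and the ERK phosphatase gene Dusp6 was 36.0, 35.6 and 37.0 RPKM and then 57.3, 61.5 and 60.5 RPKM (0.71). Fos, an immediate early gene, was 971, 893 and 991 RPKM and then 756, 750 and 789 RPKM (-0.31), and Myc was lower by -0.38 on the log2 scale. The calls of Fos and Myc were lost with rescaled sums (adjusted p = 0.23 and 0.17) and after removal of the length trend (0.24 and 0.13). So the genes of this group did not move as one. In Myc-CaP Dusp4, a nuclear MAPK phosphatase gene, was 134 and 137 TPM and then 220 and 215 TPM (0.68, adjusted p = 0.0059, limma), and Fosl1, an AP-1 subunit gene, was 325 and 319 TPM and then 243 and 241 TPM (-0.41, adjusted p = 0.017, limma). Without any 1 of the Myc-CaP libraries, none of the 4 pathway calls there was kept.

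**Figure D5:**
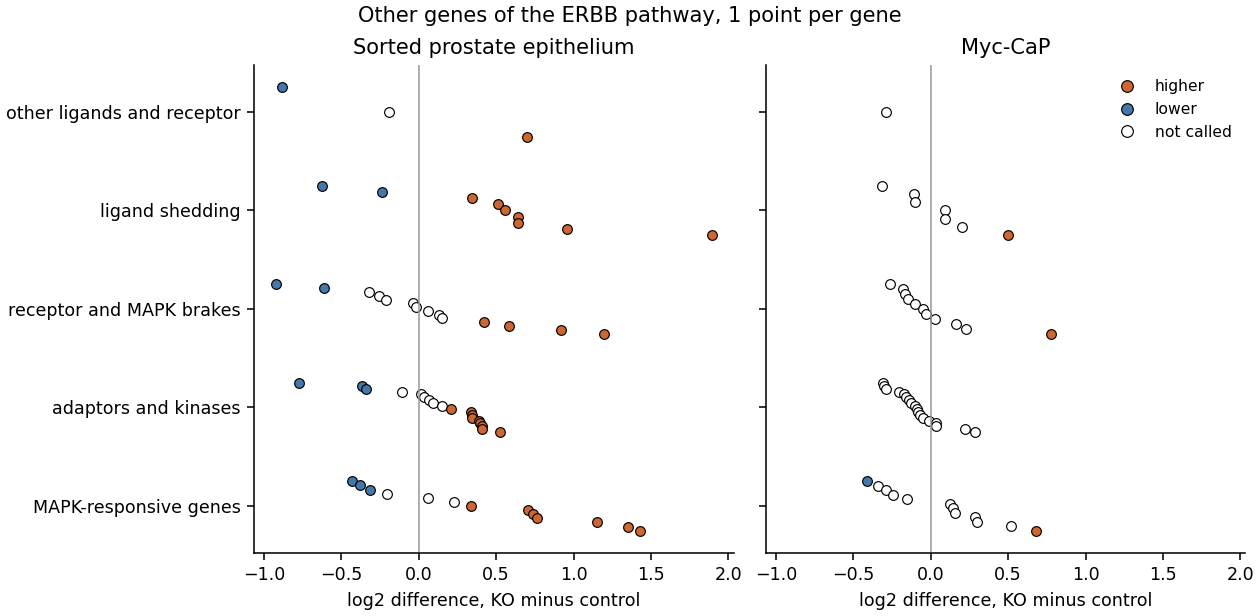
Difference of each tested pathway gene (log2 scale, KO minus control), 1 point per gene in 5 groups by role, orange where higher, blue where lower and white where not called. In the epithelium (left) 28 points are orange and 11 blue, with 7 of 9 shedding genes orange, and in Myc-CaP (right) 3 are orange and 1 is blue. Of all genes tested in the epithelium, 27.5% were higher and 29.6% lower.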

How the data were processed

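RNA of sorted mouse prostate epithelium and of Myc-CaP cells was sequenced as paired-end reads. Per the study's methods, the authors aligned reads to GRCm38/mm10 with TopHat2 and counted them by strand with HTSeq-count, while the submitters' processing notes name HISAT2, HTSeq and DESeq2. The authors deposited the epithelium values as RPKM and the Myc-CaP values as TPM, and the gene lengths behind either unit are not given in the sources used here. Neither unit is a count, and count models were not used. Every column was tied to 1 sample.

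Groups came from the genotype labels. Each table was transformed to log2(value + 1), filtered at a mean of 0.5 and given a limma 3.58.1 fit of its own (lmFit, eBayes with trend, R 4.3.3), giving 16275 and 13974 genes tested, with Benjamini-Hochberg adjustment over them and two-sided p-values. In simulated data with independent noise, the script recovered enough known shifts of 1 on the log2 scale to pass preset limits. The limit was looser for Myc-CaP, where a fit that missed most of the shifts could still pass. Those shifts were set in genes well above the filter, so smaller changes and lower genes were not covered. Shares, sums and ratios were compared by two-sided exact permutation tests (scipy 1.17.1). Depth and reads per gene were estimated from the steps between low values and GENCODE M21 exon lengths. TPM keeps no absolute depth. Coordinates and promoters are from RefSeq GRCm38.p6, and promoters of Ereg, Hbegf and Erbb3 are not used here.

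The members, the 59 pathway genes, the marker lists and the tests were chosen with earlier results of these data known. Named in the text are all members, Arid1a, all other ligands and receptors of the family, in each further pathway group and table the called genes with the lowest adjusted p (up to 2 higher and 2 lower), and all tested genes within 500 kb of the span from Epgn to Btc. Further pathway and marker genes (Adam9, Adam10, Adam19, Rhbdf2, Frmd8, Errfi1, Ptprc, Krt8, Epcam, Cdh1 and Hoxb13) were named after their values were seen. Some genes that these rules name are not reported here. Alternatives were another pseudocount, no filter or a filter at a mean of 5, quantile normalization, no trend, removal of a length trend, rescaling to the same sum (RPKM only), a replicate block and leaving out each library. Libraries were treated as unpaired.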

Additional observations from a re-analysis of the deposited data

Results flagged for a closer look

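In 2 of 7 members and 20 of 49 pathway genes tested in both systems, every Arid1a KO library of one system lay above its controls and every Arid1a KO library of the other lay below. Of all 12123 genes tested in both, 19.2% did so. The difference between the systems was not tested, because the tables were normalized separately and in different units. The values of the genes named in the text that showed this are differences on the log2(value + 1) scale. Among the members, Egf was -1.98 in the epithelium and 0.25 in Myc-CaP, and Erbb3 was 0.36 in the epithelium and -0.70 in Myc-CaP, where only Egf in Myc-CaP was not called. Arid1a was 0.25 in the epithelium, where it was not called, and -0.59 in Myc-CaP, where it was. Of the shedding genes, Adam17 was 0.64 in the epithelium and -0.10 in Myc-CaP, Adam15 was -0.24 and 0.20, and Frmd8 was 0.34 and -0.31. Cbl was 1.20 in the epithelium and -0.15 in Myc-CaP. Of the MAPK-responsive genes, Plaur was 1.35 and -0.29, Myc was -0.38 and 0.30, and Fosl1 was 1.15 and -0.41, in the epithelium and in Myc-CaP. Of the genes near the cluster on chromosome 5, Cxcl5 was -0.57 and 0.35 and Pf4 was 0.38 and -0.26. The luminal marker Hoxb13 was -1.83 in the epithelium and 0.41 in Myc-CaP. Of the shedding, Cbl, MAPK-responsive, chromosome 5 and luminal genes given here, Fosl1 was called in both systems and the others in the epithelium alone.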

How the results depend on the processing

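In the epithelium the number of members called was 5, between 4 and 6 under every alternative and when 1 library was left out, and the number of pathway genes called was 39, between 31 and 42. In Myc-CaP the number of members called was 2 and became 0 with no filter on low values, 1 with a filter at a mean of 5, 4 with a replicate block and 0 when each library was left out in turn. The number of pathway genes called there was 4 and became 2 without a trend, 17 with a replicate block and 0 when each library was left out. Over all Myc-CaP genes the block gave 1453 higher and 1318 lower against 635 and 264, and leaving out 1 library gave 37 to 66 higher and 7 to 10 lower, with the lone library assumed to vary like the others. Without a trend 359 and 92 were called and without a filter 284 and 74. Deviations of same-lettered epithelium libraries correlated at 0.041, 0.0094 and -0.057. In Myc-CaP the same-numbered pairs gave 0.19 and the crossed pairs -0.19, which is 1 value by construction with 2 libraries per group. The labels name no shared batch, and whether libraries of the same number share one was not tested. The block changed no member call in the epithelium. Among single genes the direction turned for Egfr (-0.043 with the length trend removed) and Erbb2 (0.0905 when rescaled to the same sum) in the epithelium, and for Tgfa in Myc-CaP (0.002 with the length trend removed). When each library was left out in turn, it also turned for Btc in the epithelium (from -0.0213 without control B to 0.0895), and in Myc-CaP for Hbegf (from -0.014 without KO 2 to 0.1639) and Tgfa (from -0.0775 to 0.0568, above 0 without EV 2 or KO 1). On shares of value times gene length, the Hbegf share in the epithelium differed by 3.51 percentage points and the Areg share by 5.78, and in Myc-CaP the Hbegf share by -5.82 and the Erbb2 share by 2.06. The causes were not tested, beyond the fewer samples or genes of an alternative. All other shares and counts stayed within their spread or within 1.5 times. Of the values of members, Arid1a and the pathway genes chosen by the rule, 453 kept direction and side of the threshold, 51 lost the call, 13 gained it and 7 turned. Depth limits Epgn, and Ereg in control libraries, to at most 39 reads.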
